A study of Drosophila melanogaster with 4 samples.

Results

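Oxidative phosphorylation is carried out by complexes I to V of the inner mitochondrial membrane, and most of their subunits are encoded in the nucleus. Complexes I to IV pass electrons from NADH and succinate to oxygen, all but complex II pump protons as they do so, and complex V, the ATP synthase, uses the proton gradient to make ATP. Complexes I, III, IV and V combine nuclear subunits with subunits made from mtDNA inside the organelle, whereas complex II is entirely nuclear. The nuclear subunits are translated on cytosolic ribosomes, some of which sit at the mitochondrial surface. Their reads in a mitochondrial preparation therefore belong to RNA that came with the organelles and not to mitochondrial translation.

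The nuclear subunit genes were chosen by symbol: all genes whose symbol starts with ND-, UQCR-, COX or ATPsyn, together with SdhA, SdhB, SdhC, SdhD, RFeSP and Cyt-c1. The rule gave 86 of the 17677 annotated nuclear genes with entries in the count tables, 40 for complex I, 4 for complex II, 11 for complex III, 16 for complex IV and 15 for complex V. It used no measured value. It misses subunits with other names, such as blw, the alpha subunit of ATP synthase, which were read separately as a list of 10 genes.

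Mitoribosome profiling was performed on larvae of the third instar at 4 days after egg laying, from control flies (Angel+/+, wDah) and from DmAngel KO flies (Angel-/-, a CRISPR/Cas9 deletion line given as KO-1), both in the white Dahomey background. Each condition had 2 libraries, and every library came from the crude mitochondrial fraction of whole larvae, digested with RNase T1 and pooled from the monosome fractions of a sucrose gradient. The knockout was represented by a single line. The submitters' design text speaks of technical quadruplicates and the study of independent samples, so the p-values measure the spread between these libraries, which may be technical.

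Replicates 1 and 2 held 4159707 and 1789947 reads in the control condition and 8175475 and 8227127 reads in the knockout. Paired values separated by "against" are control against DmAngel KO, in the same order, throughout. Nuclear transcripts took 31.9% and 25.5% of the reads in control but 6.93% and 6.30% in DmAngel KO, the rest being mtDNA reads, so every level below depends on which reads it is divided by. DmAngel itself (angel, chromosome 2R) had 2, 0, 1 and 1 reads, too few to check the genotype labels. Within the nuclear reads, markers of other tissues also moved. Of 7 fat body markers, the 6 Lsp and Fbp genes were lower in DmAngel KO. The other, apolpp, was not called (69749 and 18697 against 46641 and 43726 reads, log2 fold change 0.15). The summed share of all 7 was 36.5% and 20.6% in control against 11.9% and 10.8% in DmAngel KO. The larval serum protein gene Lsp2 and the fat body gene Fbp1 went from 2899 and 511 reads to 3 and 0, and from 4105 and 1277 reads to 4 and 3. Lower levels were also called for 4 of 8 midgut markers (summed share 0.997 to 1.40% in control, 0.563 to 0.880% in DmAngel KO), 2 of 4 tested larval cuticle markers (0.704 to 0.831% and 0.516 to 0.734%, Cpr65Az at 0) and 2 of 2 tested yolk protein genes of adult females (0.0158 to 0.0275% and 0.00193 to 0.00247%, the egg shell gene Cp36 at 0). None of 11 muscle markers (3.05 to 6.82% and 4.38 to 7.46%), 3 tested hemocyte markers or 1 tested neuronal marker was called. Over all genes tested 7.01% were called lower and 4.18% higher. With the replicate number as a block, 1 muscle marker was called higher, 1 muscle marker lower and the neuronal marker lower. That fit called 8.35% of all genes higher and 12.4% lower. Most muscle reads were bt, 35703 of 40387 and 29092 of 31160 in control and 18454 of 24818 and 35468 of 38644 in DmAngel KO. The muscle log2 fold changes ran from -1.19 for Tm1 to 0.84 for Act57B. The part of these shifts in the results below was not tested, and in whole larvae fewer cells of a type and less RNA per cell cannot be told apart.

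Reads were found on 79 of the 86 subunit genes. All 86 together held 2531 and 1021 reads against 2594 and 1867, that is 0.191% and 0.223% against 0.458% and 0.360% of the nuclear reads. The reads were concentrated on a few genes, since the 10 most-read members took 53.0% of them. In every library the same 4 genes came first: ATPsynbeta, the catalytic subunit of ATP synthase, ATPsynC, which forms the proton-carrying ring, UQCR-C1, a core protein of complex III, and ATPsynB, part of the stalk that holds the catalytic head still. A filter on low counts (filterByExpr in edgeR) left 49 members for testing, 19, 3, 8, 8 and 11 for complexes I to V. The members not tested had at most 39 reads over the 4 libraries, and 7 had none.

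Pooled per complex, ATP synthase held the most reads, with 1030 and 400 against 1225 and 716. Complex I followed with 683 and 246 against 642 and 498. Complex III had 429 and 179 against 354 and 307. Complex IV, cytochrome c oxidase, had 288 and 155 against 270 and 246. Complex II, succinate dehydrogenase, had the fewest reads, 101 and 41 against 103 and 100. The order of the complexes was the same in all 4 libraries.

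As a share of all reads on the 86 members, a measure that no scaling of the libraries changes, ATP synthase took 40.7% (95% Wilson interval 38.80 to 42.6%) and 39.2% (36.2 to 42.2%) in control against 47.2% (45.3 to 49.1%) and 38.4% (36.2 to 40.6%) in DmAngel KO. The DmAngel KO libraries lay on both sides of the controls. Complex I took 27.0% and 24.1% against 24.7% and 26.7%, and complex IV 11.4% and 15.2% against 10.4% and 13.2%, with overlapping groups. Complex II took 3.99% and 4.02% against 3.97% and 5.36%. For complex III both DmAngel KO libraries were lower than both controls, 13.6% (12.4 to 15.0%) and 16.4% (14.8 to 18.2%) against 16.9% (15.5 to 18.5%) and 17.5% (15.3 to 19.98%), but the interval of DmAngel KO replicate 2 overlapped those of the controls. This separation rested on UQCR-C1, the most-read gene of the complex, and without its reads the groups overlapped. With 2 libraries per group the smallest p of an exact permutation test (two-sided) is 0.333. These intervals cover counting error only.

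**Figure D1:**
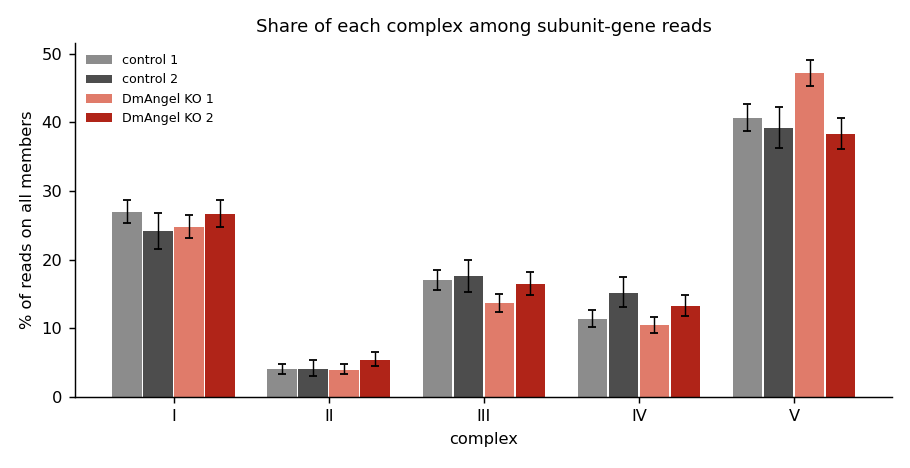
Share of each complex (x axis) among all reads on the 86 subunit genes, in percent (y axis), with one bar per library and 95% Wilson intervals as error bars. ATP synthase ranged from 38.4 to 47.2% over the 4 libraries, and the conditions overlapped for every complex but III. The separation of complex III rested on the reads of UQCR-C1.

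The direction of the pooled levels depended on the denominator. Scaled with TMM factors, which set the bulk of nuclear genes as unchanged, complex I had 667 ± 13.1 RPM (reads per 1000000) against 824 ± 32.6 RPM (control against DmAngel KO, SD, n = 2 here and below), a log2 ratio of 0.30. Complex II had 105 ± 10.9 against 148 ± 17.6, a log2 ratio of 0.50. For complexes I and II the groups did not overlap. Complex III had 453 ± 55.9 against 481 ± 18.9 and complex IV 352 ± 105 against 376 ± 27.9, log2 ratios of 0.086 and 0.096 with differences smaller than the SD of the controls. ATP synthase had 1046 ± 76.2 against 1384 ± 329, a log2 ratio of 0.40. Both knockout values exceeded both controls, but without the reads of ATPsynbeta the groups overlapped. The ratio also rested on DmAngel KO replicate 1. Without that library, and with the TMM factors computed anew, the ratio was -0.00014. The ratios of complexes I and II stayed above 0 whichever library was left out (0.13 to 0.27 and 0.29 to 0.50), and those of complexes III and IV took either sign.

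Divided by the plain sum of nuclear reads, every complex was higher in both DmAngel KO libraries than in both controls, with log2 ratios of 0.99, 1.18, 0.77, 0.77 and 1.10 for complexes I to V, and the members together stood at 2072 ± 229 against 4091 ± 688 RPM, a ratio of 1.97. Divided by all reads, mtDNA included, every complex was lower, with log2 ratios of -1.12, -0.93, -1.33, -1.31 and -0.99. The plain nuclear sum moves the median of all 2994 genes tested by 0.70 on the log2 scale, and the sum of all reads by -1.42. With TMM factors, the plain nuclear sum and all reads alike, the median of the members lay 0.32 above that of all genes. A library size shifts all genes by nearly the same amount, so this is 1 result repeated under each scale. With TMM factors and 1 library left out at a time, the difference ranged from 0.10 to 0.34.

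**Figure D2:**
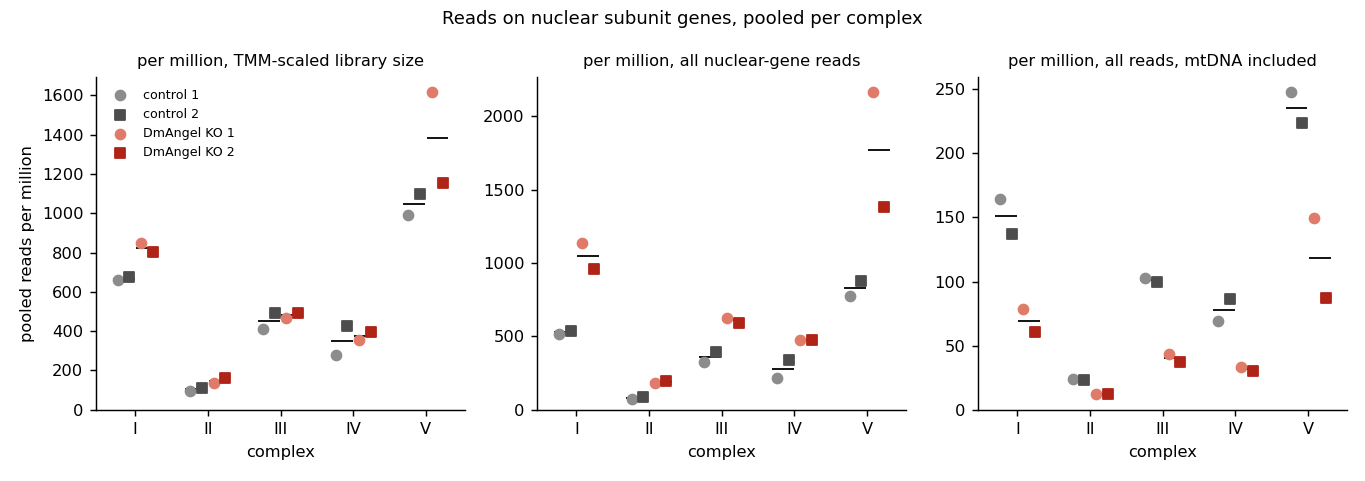
Reads pooled per complex (x axis) in each library, in RPM of the TMM-scaled library size (left), of all nuclear-gene reads (middle) and of all reads (right), with points for libraries and lines for the mean of 2. DmAngel KO was higher for every complex in the middle panel and lower for every complex in the right panel. On the left the groups overlapped for complexes III and IV, and the separation of complex V rested on ATPsynbeta.

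Tested gene by gene with edgeR's quasi-likelihood test, TMM factors and adjustment over all 2994 genes, 0 of 49 members were called higher and 0 were called lower in DmAngel KO. Over all genes tested 4.18% were called higher and 7.01% lower. At an unadjusted p under 0.05 there were 2 members, both higher, and DESeq2 called none and had none at that level. With the replicate number as a block, 2 of 49 members were called higher, ND-AGGG and UQCR-11, while 8.35% of all genes were. The standard errors of the log2 fold changes ranged from 0.33 to 0.63 (median 0.44). In the fit with TMM factors and no block, on all 4 libraries, even 1.54 for ND-AGGG and 1.32 for UQCR-11 missed the threshold. Differences well above 1 standard error could thus go uncalled, and the absence of calls does not show unchanged levels. The median log2 fold change of the 49 members was 0.33, against 0.015 for all genes, and 35 of 49 (71.4%) were above 0, against 50.5% of all genes. This median rested on single libraries, since it was 0.16 without control replicate 1 (33 of 54 members above 0, median of all genes 0.047) and 0.098 without DmAngel KO replicate 1 (30 of 50 above 0, median of all genes -0.0044). Both DmAngel KO libraries exceeded both controls for 23 of 49 members (46.9%), against 29.2% of all genes, and lay under both for 2 of 49 (4.08%), UQCR-C1 and COX7A, against 27.9%. With the plain sum of nuclear reads as library size, 13 members were called higher, 26.5% of them against 24.5% of all genes, and with all reads 24 were called lower, 49.0% against 63.7%.

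**Figure D3:**
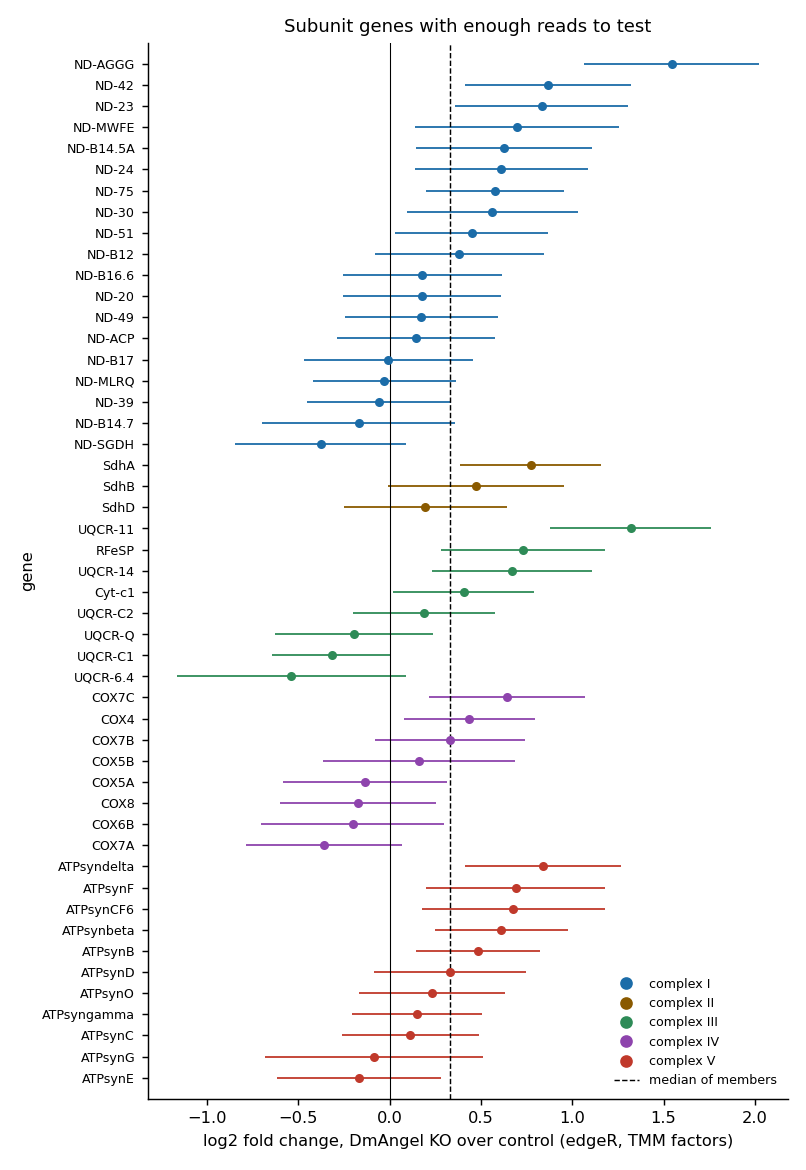
Log2 fold change of DmAngel KO over control (x axis, edgeR with TMM factors) for the 49 members tested (y axis), with bars for 1 standard error and colours for complexes. Most points lie to the right of 0 and around the dashed median of 0.33. None passed the threshold in the fit shown, and 2 did with the replicate block. With all reads as library size 48 of the 49 are below 0.

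**Figure D4:**
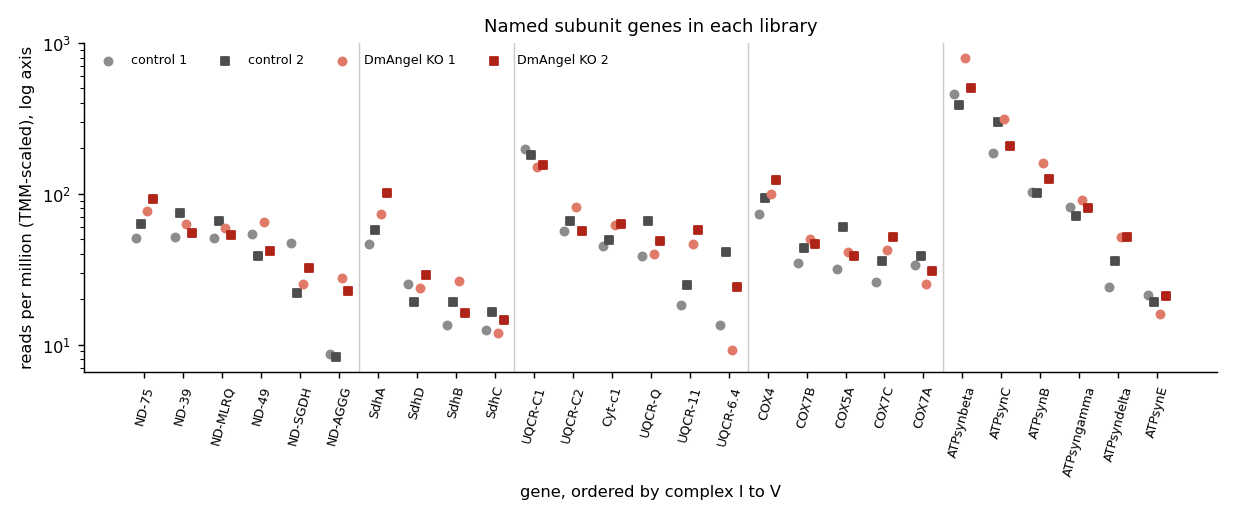
TMM-scaled RPM (y axis, log scale) of the 27 named subunit genes (x axis, complexes I to V separated by grey lines) in the 4 libraries. ATPsynbeta is the highest gene in each library, and ND-AGGG and UQCR-11 show the widest gap between the conditions, which narrows for ND-AGGG and turns for UQCR-11 when all reads are the denominator.

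Complex I, NADH dehydrogenase, takes electrons from NADH and is the largest of the complexes. On the TMM scale 14 of its 19 tested members were above 0 and 5 below, against 50.5% of all genes above 0. Their median log2 fold change was 0.38. Both DmAngel KO libraries exceeded both controls for 10, against 29.2% of all genes. ND-AGGG (FBgn0058002, chromosome 3L, 24976254 to 24977118 in BDGP6.54), counterpart of a small accessory subunit of the mammalian membrane arm, had 9 and 3 reads against 21 and 14. Scaled with TMM factors these were 8.67 and 8.25 against 27.7 and 22.5 RPM, so the groups were well apart although the counts were low. Its log2 fold change of 1.54 ± 0.48 (SE) was the largest of all members and missed the threshold (edgeR, adjusted p = 0.0577, or 0.0279 with the replicate block). The value was 2.23 with the plain nuclear sum (adjusted p = 0.00546), and 0.098 with all reads.

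The most-read genes of complex I differed less on the TMM scale. ND-75, the large iron-sulfur subunit of the matrix arm, had 53 and 23 reads against 58 and 57, which gave 51.1 and 63.3 against 76.5 and 91.7 scaled RPM. Both DmAngel KO values were above the controls, with a log2 fold change of 0.58 ± 0.38 (edgeR, adjusted p = 0.343). ND-49, a core subunit next to the quinone site, had 56 and 14 against 49 and 26 reads and a log2 fold change of 0.17 ± 0.42. ND-39, an accessory subunit of the matrix arm, had 54 and 27 against 48 and 34 reads, a log2 fold change of -0.060 ± 0.39. ND-MLRQ had 53 and 24 against 45 and 33 reads, a log2 fold change of -0.029 ± 0.39, and its mammalian counterpart has been assigned to complex IV as well. The lowest value belonged to ND-SGDH, an accessory subunit, with 49 and 8 against 19 and 20 reads and a log2 fold change of -0.38 ± 0.47. For ND-49, ND-39, ND-MLRQ and ND-SGDH the groups overlapped.

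The 7 core subunits of the matrix arm that were all tested, ND-75, ND-51, ND-49, ND-30, ND-24, ND-23 and ND-20, carry the flavin, the iron-sulfur clusters and the path of electrons to quinone. Their log2 fold changes ran from 0.17 to 0.83 with a median of 0.56 on the TMM scale, and 0 of 7 were called. Summed, they held 205 and 204 scaled RPM in control and 296 and 261 in DmAngel KO, without overlap, and with all reads as denominator all of their values turned negative.

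Complex II passes electrons from succinate to quinone and has no mtDNA-encoded subunit. SdhA, the flavoprotein that oxidises succinate, had 48 and 21 reads against 56 and 63, that is 46.2 and 57.8 against 73.9 and 101 scaled RPM. Both DmAngel KO libraries were above both controls, and the log2 fold change of 0.77 ± 0.39 did not pass the test (edgeR, adjusted p = 0.214). SdhB, the iron-sulfur subunit, had 14 and 7 against 20 and 10 reads. The membrane anchors SdhC and SdhD had 13 and 6 against 9 and 9 reads and 26 and 7 against 18 and 18 reads. The groups of these 3 genes overlapped on the TMM scale, with log2 fold changes of 0.47 ± 0.48 for SdhB and 0.20 ± 0.45 for SdhD, and SdhC did not pass the filter. The 4 subunits occur once each in the complex, yet SdhA had 3.43, 3.00, 2.80 and 6.30 reads per read of SdhB in the 4 libraries, or 1.54, 1.35, 1.26 and 2.83 per coding length.

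Complex III, the cytochrome bc1 complex, carries electrons from quinol to cytochrome c. Its 8 tested members ranged from -0.54 to 1.32 on the log2 scale with TMM factors. UQCR-11 (FBgn0260008, chromosome 3L, 25120709 to 25126171 in BDGP6.54), a small subunit of the bc1 complex, had 19 and 9 reads against 35 and 36. These were 18.3 and 24.8 against 46.2 and 57.9 scaled RPM, with DmAngel KO well above control. The log2 fold change of 1.32 ± 0.44 missed the threshold (edgeR, adjusted p = 0.0744). It passed with the replicate block (edgeR, adjusted p = 0.0264) but not in DESeq2 (1.28, adjusted p = 0.317). With 1 library left out at a time the log2 fold change ranged from 0.96 to 1.39. The value was 2.00 with the plain nuclear sum (adjusted p = 0.00532), and -0.13 with all reads.

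UQCR-C1 (FBgn0038271, chromosome 3R, 14890231 to 14892387), the most-read gene of complex III and related to mitochondrial processing peptidases, was lower in DmAngel KO on the TMM scale. It had 207 and 66 reads against 114 and 97, that is 199 and 182 against 150 and 156 scaled RPM. Both DmAngel KO libraries were below both controls, with a log2 fold change of -0.32 ± 0.33 (edgeR, adjusted p = 0.570) that became 0.37 with the plain nuclear sum. Its share of the reads on all members was 8.18% and 6.46% against 4.39% and 5.20%. UQCR-C2, the second core protein, had 59 and 24 against 62 and 35 reads and a log2 fold change of 0.19 ± 0.39.

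The electron carriers of complex III had fewer reads. Cyt-c1, the haem protein that hands electrons to cytochrome c, had 47 and 18 reads against 47 and 39, 45.3 and 49.5 against 62.0 and 62.7 scaled RPM. The groups did not overlap, with a log2 fold change of 0.41 ± 0.39 (edgeR, adjusted p = 0.534). RFeSP, the Rieske iron-sulfur protein, had 18 and 9 against 25 and 21 reads and a log2 fold change of 0.73 ± 0.45. UQCR-Q, a small subunit near the quinone site, had 40 and 24 reads against 30 and 30, with a log2 fold change of -0.19 ± 0.43. UQCR-6.4, the smallest subunit by coding length of those named, had 14 and 15 against 7 and 15 reads, a log2 fold change of -0.54 ± 0.63 with the largest error of all members.

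Complex IV, cytochrome c oxidase, reduces oxygen to water in a core of mtDNA-encoded subunits that the nuclear COX proteins surround. Of 8 tested members 4 were above 0 and 4 below on the TMM scale, with a median of 0.014 beside 0.015 for all genes. COX4, a regulatory subunit on which assembly of the oxidase depends, had 76 and 34 reads against 75 and 77. These gave 73.2 and 93.5 against 98.97 and 124 scaled RPM, and the log2 fold change was 0.44 ± 0.36 (edgeR, adjusted p = 0.464). COX7C had 27 and 13 against 32 and 32 reads and the highest value of the complex, 0.64 ± 0.43. COX7B had 36 and 16 against 38 and 29 reads, 0.33 ± 0.41. For COX4, COX7B and COX7C both DmAngel KO libraries were above both controls.

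COX7A, another small membrane subunit, had 35 and 14 reads against 19 and 19, or 33.7 and 38.5 against 25.1 and 30.6 scaled RPM. Both DmAngel KO libraries were lower than both controls, with the lowest log2 fold change of the complex, -0.36 ± 0.43 (edgeR, adjusted p = 0.633), which was 0.32 with the plain nuclear sum. COX5A, on the matrix side, had 33 and 22 against 31 and 24 reads, -0.13 ± 0.45. The remaining tested members, COX5B, COX6B and COX8, had 15 to 33 reads per library and log2 fold changes between -0.20 and 0.16.

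Complex V, the ATP synthase, couples a proton-driven ring in the membrane to a catalytic head in the matrix. On the TMM scale 9 of 11 tested members were above 0, against 50.5% of all genes, with a median of 0.33. ATPsynbeta (FBgn0010217, chromosome 4, 1031484 to 1034917), the catalytic subunit of the head, had 479 and 141 reads against 606 and 311 and took 19.2% of the reads on all members. Scaled, these were 461 and 388 against 800 and 500 RPM, with DmAngel KO above control and far apart between its own replicates. The log2 fold change was 0.61 ± 0.36 (edgeR, adjusted p = 0.297), 1.31 with the plain nuclear sum (adjusted p = 0.0244) and -0.80 with all reads (adjusted p = 0.147). The other genes of the head and central stalk were ATPsyngamma, the rotating shaft, with 85 and 26 against 69 and 50 reads (log2 fold change 0.15 ± 0.36), and ATPsyndelta, which sits at the foot of the shaft, with 25 and 13 against 39 and 32 reads (0.84 ± 0.43, the highest of the complex).

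ATPsynC (FBgn0039830, chromosome 3R, 31216145 to 31219630), which forms the ring, had 194 and 109 reads against 237 and 129. Its scaled values of 187 and 300 against 313 and 208 RPM overlapped, with a log2 fold change of 0.11 ± 0.37. The 4 genes of the peripheral stalk, ATPsynB, ATPsynD, ATPsynO and ATPsynCF6, had log2 fold changes from 0.23 to 0.68. ATPsynB was the most read of them, with 106 and 37 against 121 and 78 reads, or 102 and 102 against 160 and 125 scaled RPM, and a log2 fold change of 0.49 ± 0.34 (edgeR, adjusted p = 0.379). Of the 3 small membrane subunits, ATPsynE had 22 and 7 against 12 and 13 reads and the lowest log2 fold change of the complex, -0.17 ± 0.45.

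Partner subunits that are present in fixed ratios within a complex were compared within each library, where no scaling enters. The 8 pairs were chosen after their values were seen. The alpha subunit blw, which alternates with the beta subunit in the head in equal number, had 479 and 154 reads against 471 and 254. ATPsynbeta thus had 1.00 and 0.916 reads per read of blw in control and 1.29 and 1.22 in DmAngel KO, or 1.08 and 0.989 against 1.39 and 1.32 per coding length. Both knockout ratios exceeded both control ratios. For any pair whose groups separate, an exact permutation test (two-sided) with 2 against 2 libraries gives p = 0.333. Such a separation therefore cannot decide whether a ratio changed. The ratio was below both controls in DmAngel KO for ATPsyngamma over ATPsyndelta, 3.40 and 2.00 against 1.77 and 1.56, and for Cyt-c1 over RFeSP, 2.61 and 2.00 against 1.88 and 1.86. It overlapped for the other 5 pairs, among them UQCR-C1 over UQCR-C2 with 3.51 and 2.75 against 1.84 and 2.77.

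Levels of different genes were compared per kilobase, in RPM of the nuclear reads averaged over the 4 libraries. By coding length ATPsynC was highest at 635, followed by ATPsynbeta at 382, ND-MLRQ at 237, COX7C at 211 and COX4 at 189. By the longest annotated transcript the order was ATPsynbeta at 286, ATPsynC at 147, ATPsynB at 143, COX7B at 111 and ND-MLRQ at 109. Of the 10 highest genes 7 were the same by both lengths. ATPsyndelta ranked 19 by coding length and 60 by longest transcript, which is 3817 bases long against 471 coding bases. ATPsynC exceeded ATPsynbeta in all 4 libraries by coding length, and ATPsynbeta exceeded ATPsynC in all 4 by longest transcript. COX7C (103 to 312 by coding length) and COX4 (105 to 272) changed places between libraries.

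**Figure D5:**
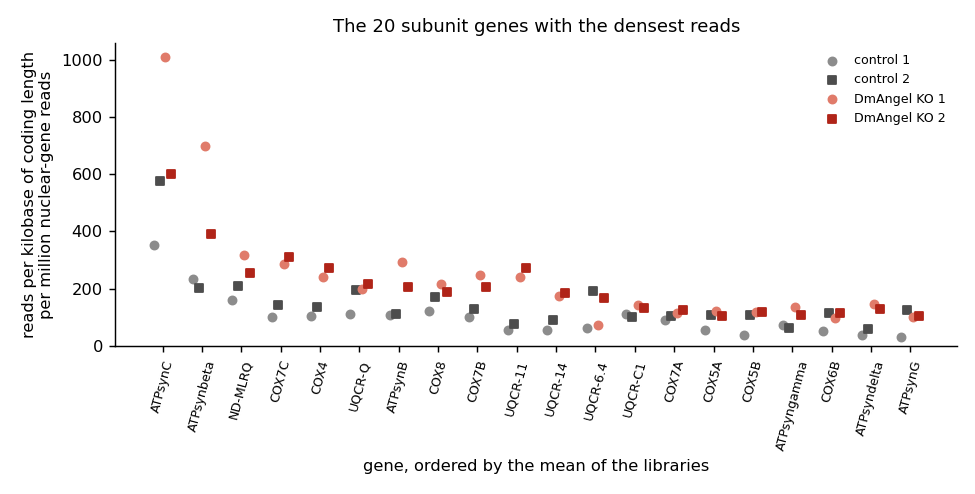
Reads per kilobase of coding length and per 1000000 nuclear-gene reads (y axis) of the 20 subunit genes with the highest mean (x axis), with one point per library. ATPsynC ranges from 354 to 1010 and is the highest gene in every library, and DmAngel KO lies above control for most genes on this plain nuclear scale, an order that turns when all reads are the denominator.

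Many fly subunit genes have a duplicate whose symbol ends in L or in L and a digit, and several such duplicates are known from testis. Of the 21 duplicates among the members, 15 had reads, 66 in all over the 4 libraries, with a median of 1 read per gene. The 65 other members had 7947 reads and a median of 69. COX4L was the most-read duplicate, with 8 and 4 reads against 8 and 2. None passed the filter. ND-24L, ND-B14.5AL, UQCR-6.4L, COX6AL, COX7CL and ATPsynCF6L had no read in any library, as had ND-B8, which is no duplicate. A gene at 0 reads in all libraries may still have held up to 2.26 to 6.56 RPM, the level of 3 reads. The 8 testis markers had 8, 3, 6 and 10 reads in all, with bam and dj at 0.

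The list of other oxidative phosphorylation subunits and cytochrome c, with 9 of 10 genes tested, had a median log2 fold change of 0.22 on the TMM scale and 0 calls. The 13 symbols sought for the tricarboxylic acid cycle, older ones included, gave 11 genes, all tested, with a median of 0.33 and 0 calls. With the plain nuclear sum 1 of 9 and 5 of 11 genes of these lists were called higher, beside the 24.5% of all genes. The 17 assembly factors found held 34 to 87 reads per library and none could be tested. Of 73 mitochondrial ribosomal protein genes, which held 91 to 268 reads per library, 2 passed the filter and neither was called. Cytosolic ribosomal protein genes, with 78 of 92 tested, had a median of -0.64 on the TMM scale and 0.048 with the plain nuclear sum. Of these RpL34a was called higher, and RpL14 and RpL27 lower. Against the reads on the 86 members, the cytosolic ribosomal proteins held 182% and 218% against 118% and 100.5%, with no overlap and no scaling involved.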

How the data were processed

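Mitoribosome footprint libraries, 2 control and 2 DmAngel KO, were analysed, grouped by the genotype in the sample labels. The authors merged read pairs and trimmed linkers with BBTools 38.79, removed reads on nuclear rRNA and tRNA, aligned the rest on the sense strand with Bowtie2 2.4.1 to Ensembl 99 transcripts with edited mitochondrial entries, and deposited raw counts per transcript. The submitters' notes also name bedtools and the build BDGP6. How reads on several isoforms were shared is not given in the sources used here. Of 34882 nuclear transcript entries, 34713 matched the gene annotation of BDGP6.54 (release 115), which gave symbols and coordinates, and 169 were left out of tests. Counts were summed per gene. RPM values used 457054 to 1324943 nuclear reads per library, of which nuclear rRNA entries still made up 2.05 to 4.08%.

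Genes were tested with edgeR 4.0.16 in R 4.3.3 (glmQLFTest, filterByExpr, TMM factors 0.783, 0.796, 1.34 and 1.20, Benjamini-Hochberg, threshold 0.05), after a check on simulated data, and with DESeq2 1.42.0. Standard errors came from the F statistic. Replicates differed by more than sampling noise (chi-square per degree of freedom 32.4 in control and 14.1 in DmAngel KO). The named genes were those past the threshold, the 4 most-read members of each complex, the tested members with the highest and lowest change in each, and those with groups apart and a change over 1 on the log2 scale. Others were chosen after their values were seen. Members and lists were chosen with earlier results of these data known. Exons of 7 members overlap another gene on the same strand, ATPsynC and ND-MLRQ a microRNA without reads and ND-MWFE, ND-MNLL, ND-15, COX6B and COX6AL2 genes with 0 to 7 reads per library, and reads there cannot be told apart.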

Additional observations from a re-analysis of the deposited data

How the results depend on the processing

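The choice of library size decided the direction of most members, while tests, filters and transcript choice changed few calls. DESeq2, the set without nuclear rRNA entries, no filter on low counts and the most-read transcript of each gene left all named members that could be fitted on the same side of 0 with 0 calls. With a mean of at least 50 reads 6 members remained testable and UQCR-C1 turned to 0.010. Without TMM factors 13 members were called higher, the pooled log2 ratios of complexes I to V were 0.99, 1.18, 0.77, 0.77 and 1.10, and members below 0 turned: 0.63 for ND-39, 0.66 for ND-MLRQ, 0.30 for ND-SGDH, 0.37 for UQCR-C1, 0.48 for UQCR-Q, 0.13 for UQCR-6.4, 0.55 for COX5A, 0.32 for COX7A and 0.51 for ATPsynE. With all reads as library size 24 members were called lower, the pooled ratios were -1.12, -0.93, -1.33, -1.31 and -0.99, and members above 0 turned: -0.87 for ND-75, -1.26 for ND-49, -0.68 for SdhA, -1.26 for SdhD, -0.96 for SdhB, -1.22 for UQCR-C2, -1.03 for Cyt-c1, -0.13 for UQCR-11, -1.004 for COX4, -1.10 for COX7B, -0.80 for COX7C, -0.80 for ATPsynbeta, -1.26 for ATPsynC, -0.93 for ATPsynB, -1.28 for ATPsyngamma and -0.59 for ATPsyndelta. Library sizes without the larval serum protein genes and library sizes from the reads on the members were added after seeing the data. The first called 2 members higher, ND-AGGG (adjusted p = 0.0293 in edgeR) and UQCR-11 (0.0324), where 7.65% of all genes were called higher, raised the pooled ratios of complexes I to V to 0.64, 0.83, 0.42, 0.45 and 0.75, and turned ND-39 to 0.27, ND-MLRQ to 0.30, UQCR-C1 to 0.00095, UQCR-Q to 0.13, COX5A to 0.20 and ATPsynE to 0.12. The second called 0 members and turned ND-49 to -0.16, SdhD to -0.12, UQCR-C2 to -0.13, ATPsynC to -0.18 and ATPsyngamma to -0.16. Apart from the library sizes, whose construction shifts all genes, the cause of these changes was not tested.

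With each library left out in turn, the lone library of a condition was assumed to vary like the others, so only effect sizes are given. The pooled ratios ranged from 0.13 to 0.27, 0.29 to 0.50, -0.14 to 0.11, -0.29 to 0.33 and -0.00014 to 0.55 for complexes I to V. The sign turned in at least 1 of the 4 fits for ND-39 (-0.43 to 0.075), ND-MLRQ (-0.33 to 0.032), ND-49 (-0.32 to 0.37), ND-SGDH (-0.84 to 0.27), SdhD (-0.042 to 0.34), SdhB (-0.098 to 0.68), UQCR-C2 (-0.25 to 0.35), UQCR-Q (-0.69 to 0.074), UQCR-6.4 (-1.46 to 0.16), COX5A (-0.71 to 0.21), ATPsynC (-0.36 to 0.37) and ATPsyngamma (-0.079 to 0.16). ATPsynbeta ranged from 0.097, without DmAngel KO replicate 1, to 0.83.

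The study describes independent experiments with both conditions prepared in parallel, but no source used here ties the replicate numbers to them, and with 2 numbers the pairing cannot be read from the data (correlation of the replicate differences 0.19 over 2994 genes and 0.16 over 49 members). With the replicate number as a block, 2 members were called higher, ND-AGGG (log2 fold change 1.58, edgeR adjusted p = 0.0279) and UQCR-11 (1.28, adjusted p = 0.0264), beside 8.35% of all genes tested, and 0 were called lower. Of the 79 members with reads, 30 had too few to be tested.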
